A study of Mus musculus with 22 samples.

Results

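The genes described here are 10 photoreceptor and pigment epithelium genes that are related to the homeoprotein OTX2, read in choroid plexus (ChP) of adult mice. They are Arr3, Rrh, Rgr, Rpe65, Rlbp1, Rbp3, Crx, Best1, Mitf and Tyr, and all 10 were found among the 33964 genes of the count files. They were selected by name, with results of the Cre-Tat comparisons already known: Arr3 was listed because it had the largest fall in both ventricles there. The Cre-Tat values of the members below are therefore a description, with no test. Gene lists were also chosen with earlier results of these data known. The p-values given for other genes are therefore not independent of those results. Each gene was read on its most counted transcript.

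OTX2 and its relative CRX are transcription factors of the eye, where OTX2 acts in photoreceptors and in the retinal pigment epithelium, and OTX2 is also made by the epithelium of the ChP. In the visual cycle, the pigment epithelium turns spent all-trans retinoid back into the 11-cis chromophore of the opsins and returns it to the photoreceptors. RPE65 is the isomerase of that cycle, RLBP1 carries 11-cis retinoids, RBP3 moves retinoids between the cell layers, and RGR and RRH are opsins of the pigment epithelium. ARR3 is the arrestin of cones, BEST1 a chloride channel, MITF the transcription factor of pigment cells, and TYR the first enzyme of melanin synthesis.

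RNA was sequenced from 14 pools of ChP, with 2 pools (A and B) in each of 7 groups. The conditional model was Otx2 lox/lox mice (strain label S129), 3 months old, 15 days after injection of the recombinase Cre-Tat or of vehicle into the lateral ventricles, with ChP of the lateral ventricle (LV) and of the ventricle of the hindbrain (4V) taken apart. A pool held 5 mice with Cre-Tat or 4 with vehicle, and the injected protein reaches the ChP from the cerebrospinal fluid. The constitutive model gave 4V ChP of wildtype mice, of mice labelled Otx2 (+/-), which the study calls Otx2+/GFP, and of mice labelled Otx2 (+/AA), an allele that the sources used here do not describe (strain label B6D2; no injection). The study names 4 Otx2+/GFP mice and 5 wildtype littermates, 3 months old, for the duplicate pools. Whether these numbers are per pool, and whether the duplicates held separate mice, is not stated. The models were sequenced in separate runs, so model, strain and run cannot be told apart.

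Total counts per pool were 22750019 to 50088408, and levels are given as CPM, counts scaled to the library size after TMM adjustment. Reads on the full Otx2 transcript numbered 22151 to 30776 with the Cre-Tat label and 4258 to 9442 with the vehicle label. They numbered 20351 and 17240 in the pools labelled Otx2 (+/-), 6923 and 5390 in the wildtype pools and 7232 and 6836 in the pools labelled Otx2 (+/AA). The Otx2 count was thus higher under the labels Cre-Tat and Otx2 (+/-) than in their controls. The files count whole transcripts, so that reads on the deleted part of Otx2 cannot be counted apart, and the count does not check those labels. The study counted exon 2 and reported fewer reads on it with Cre-Tat in LV and 4V and in Otx2+/GFP mice. Ttr, the thyroid hormone carrier made by ChP epithelium, fell in 4V with Cre-Tat (-1.18, edgeR adjusted p = 0.015) and with Otx2 (+/-) (-0.78, edgeR adjusted p = 0.04), and had a value of -0.66 in LV (edgeR adjusted p = 0.077). Groups are therefore called by their labels. Of 12 markers of ChP epithelium, all were counted in every pool. Of 11 photoreceptor markers, the summed level was 3.24 to 7.29 CPM in 13 pools and 8.53 CPM in pool A labelled Otx2 (+/-), which stands apart in several genes of pigment cells and is described with the sparse members.

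The members' levels spanned a wide range. Per kilobase of transcript, the mean level over the 14 pools was 37.7 CPM for Mitf, 3.19 for Rrh, 1.44 for Rlbp1, 0.836 for Best1, 0.397 for Rpe65 and 0.296 for Arr3. The other members were near the limit of detection, at 0.0703 CPM per kilobase for Tyr, 0.0151 for Rbp3, 0.0111 for Rgr and 0.0076 for Crx. No exon of a member overlaps another annotated gene.

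The sequence before the transcription start is shown for Arr3, Rrh and Rpe65. These 3 had the largest fitted differences between groups among the members tested. Tyr, whose counts rest on a single pool, was not tested. OTX2 and CRX are known to bind the motif TAATCC, and capitals mark each match on either strand (GGATTA on the strand shown). Sequences are from RefSeq (GRCm38.p6), run 5′ to 3′ along the gene's strand and stop at the gene's first base in GENCODE, which lies before the RefSeq start for Rrh and Rpe65, so that 168 and 244 of the 250 bases are printed.
Arr3, chrX:100605247-100605496 (plus strand): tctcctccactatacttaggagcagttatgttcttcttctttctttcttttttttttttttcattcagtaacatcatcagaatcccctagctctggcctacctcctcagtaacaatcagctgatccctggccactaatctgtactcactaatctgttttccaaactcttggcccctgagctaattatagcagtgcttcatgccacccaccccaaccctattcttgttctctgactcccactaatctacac
Rrh, chr3:129822588-129822755 (minus strand): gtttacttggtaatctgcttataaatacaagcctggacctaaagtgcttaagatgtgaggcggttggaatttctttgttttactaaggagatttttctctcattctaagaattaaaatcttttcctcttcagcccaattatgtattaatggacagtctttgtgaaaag
Rpe65, chr3:159598931-159599174 (plus strand): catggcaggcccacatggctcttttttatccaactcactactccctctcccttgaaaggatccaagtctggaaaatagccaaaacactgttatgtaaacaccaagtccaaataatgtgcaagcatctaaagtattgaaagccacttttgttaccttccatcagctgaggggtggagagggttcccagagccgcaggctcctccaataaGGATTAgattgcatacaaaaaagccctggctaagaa
The motif was searched over all 250 bases before the RefSeq start, in which Rpe65 held 1 match, 42 bases before that start, and Arr3 and Rrh held none. TAATCC was present in 6 of the 12 promoters of the 10 members (Rpe65, Crx, Rbp3, Rgr, Best1 and 1 of the 3 starts of Mitf). Of the 32851 mouse promoters of the same length, 6.25% held it. Crx held 2 matches. TAAGCC, a related motif, was found in Rbp3 alone among the members and in 8.2% of all promoters. These are letter matches, and the members had been chosen as OTX2-related genes.

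Arr3, the cone arrestin, was low in every group and lowest in the pools labelled Cre-Tat, Otx2 (+/-) and Otx2 (+/AA). In LV ChP it had 46 and 19 counts in the vehicle pools and 5 and 0 in the Cre-Tat pools. In 4V ChP the counts were 13 and 13 with vehicle and 3 and 2 with Cre-Tat. The groups did not overlap in either ventricle, and the fitted log2 fold change was -3.82 (SE 0.86) in LV and -2.96 (SE 0.69) in 4V.
The constitutive model, which was not used to list Arr3, had 8 and 11 counts in the wildtype pools, 0 and 0 in the pools labelled Otx2 (+/-), and 2 and 2 in those labelled Otx2 (+/AA). Every wildtype pool was above every other pool of that model. For Otx2 (+/-), 0 counts stood against 19 in wildtype, and the 95% exact counting interval of the ratio allows a fall as small as 4.96-fold. For Otx2 (+/AA) the ratio of wildtype to mutant was 5.21 (95% exact counting interval 1.73 to 21.1). These intervals rest on counts summed over the pools of a group, treated as independent, and leave out the spread between pools. The reads also carry no molecular identifiers, so repeated reads of a molecule are not told apart. Arr3 did not pass edgeR's filter on low counts in this model. Without the filter its adjusted p was 0.083 (edgeR) for Otx2 (+/-) and 0.39 (edgeR) for Otx2 (+/AA). With counts summed over its 7 transcripts, it passed the filter and the threshold for Otx2 (+/-), with a log2 fold change of -5.56 (edgeR adjusted p = 0.022). Those transcripts overlap and a read can be counted on several of them, so that sum holds reads more than once and lends the gene no added support. The transcript with the most counts, Arr3-202, is annotated as a retained intron (124 counts over all pools), and the protein-coding Arr3-201 had 84.

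Rpe65, the isomerase, went the other way: its counts were near 0 in the control pools and higher in the pools labelled Cre-Tat and Otx2 (+/-). LV ChP had 8 and 1 counts with vehicle and 43 and 35 with Cre-Tat. In 4V ChP there were 2 and 0 counts with vehicle and 30 and 28 with Cre-Tat, so that the groups were apart in both ventricles. The fitted log2 fold change was 2.90 (SE 0.68) in LV and 4.09 (SE 0.78) in 4V. As the 4V vehicle pools held 2 counts in all, the ratio of 18.4 has a counting interval of 4.88 to 156.
In the constitutive model Rpe65 had 2 and 0 counts in the wildtype pools, 10 and 18 in the pools labelled Otx2 (+/-) and 2 and 6 in those labelled Otx2 (+/AA). The Otx2 (+/-) pools lay above all others of that run. Their ratio to wildtype was 13.2 (95% exact counting interval 3.32 to 114), and the ratio of Otx2 (+/AA) to wildtype was 3.65 (0.728 to 35.3). Rpe65 did not pass the filter here, and without the filter its adjusted p was 0.12 (edgeR) for Otx2 (+/-) and 0.88 (edgeR) for Otx2 (+/AA). Without wildtype pool A it passed the filter for Otx2 (+/-), with a log2 fold change of 6.78. That fit sets the pools where Rpe65 is high against a single wildtype pool at 0, so it lends no added support.

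**Figure D1:**
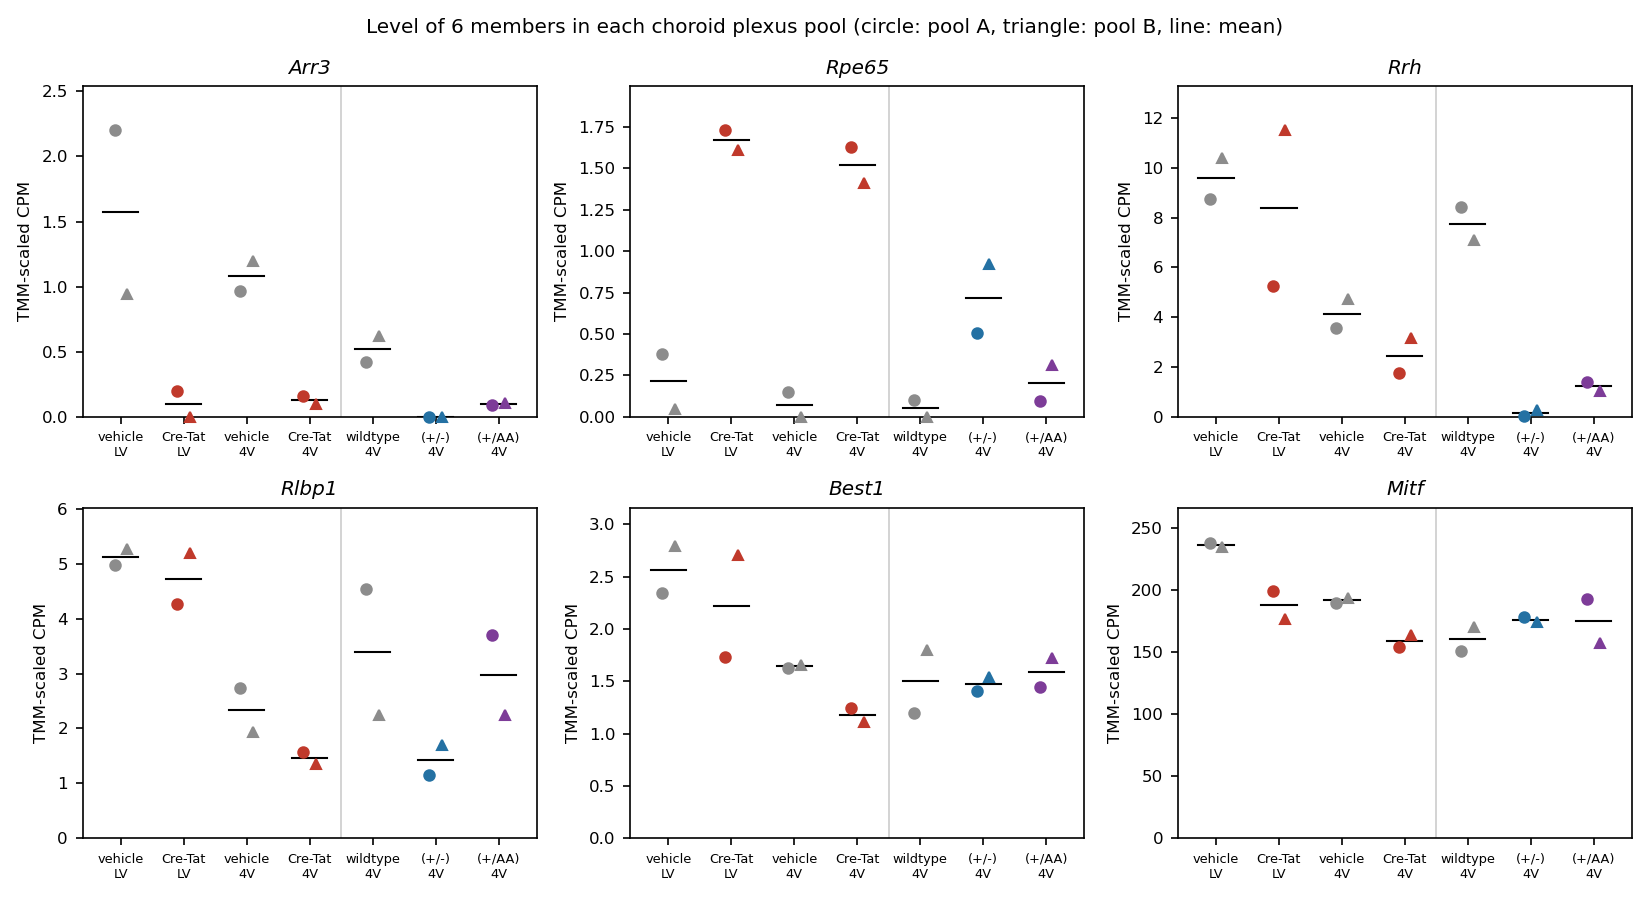
Level of 6 members in each pool, in TMM-scaled CPM on a linear axis, with pools A (circles) and B (triangles) of each group and a line at the mean. Arr3 was below 0.25 CPM in all pools labelled Cre-Tat, (+/-) and (+/AA), Rpe65 was highest in the Cre-Tat pools, and Rrh fell to 0.154 CPM on average in the (+/-) pools.

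Read against all genes, 2 of the 6 members tested passed the threshold (adjusted p under 0.05) in the LV Cre-Tat comparison, where 3.24% of 14990 genes did. In 4V ChP 2 of 6 passed, where 10.7% of 14537 genes did. These were Arr3 and Rpe65 in both ventricles, and since the members were listed with these comparisons known, nothing is read from the counts. Rgr, Rbp3, Crx and Tyr passed no filter. When single pools were dropped, Arr3 stayed between -8.05 and -2.93 (log2 fold change) in LV and between -3.32 and -2.65 in 4V. Rpe65 stayed between 2.11 and 4.91 in LV and between 3.29 and 7.65 in 4V. No member passed in LV without Cre-Tat pool B. Arr3 alone passed there without Cre-Tat pool A or vehicle pool B, and Rpe65 alone without vehicle pool A. In 4V Rpe65 passed whichever pool was dropped, and Arr3 only without Cre-Tat pool A. These calls show how far the values rest on single pools and are no test of the members. ChP is a mixed tissue, and in bulk RNA fewer cells of a type and less RNA per cell cannot be told apart. Summed markers of ChP epithelium were 224089 and 233451 CPM in the LV vehicle pools and 124413 and 165864 CPM in the LV Cre-Tat pools. In 4V ChP they were 220790 and 187004 CPM with vehicle and 99102 and 88004 CPM with Cre-Tat. Of the 12 genes, 6 fell in LV and 12 in 4V, and Ttr made up 177703 CPM of the sum in LV vehicle pool A. Macrophage markers rose instead, 3 of 8 in LV and 6 of 8 in 4V, and so did ependymal markers, 2 of 7 tested in LV and 3 of 7 in 4V. Astrocyte markers went both ways (2 higher and 1 lower of 7 in LV, 3 and 1 in 4V). So did leptomeningeal fibroblast markers (1 higher and 1 lower of 8 in LV, 1 and 2 in 4V). The part of these shifts in the members' values was not tested. Of the photoreceptor markers, none of the 2 tested passed in either ventricle, and the sum of all 11 was 3.85 to 5.75 CPM with Cre-Tat and 5.27 to 7.29 CPM with vehicle.

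Rrh, the opsin known as peropsin, had the largest difference of any member tested in the constitutive model. Its counts were 161 and 126 in the wildtype pools, 1 and 5 in the pools labelled Otx2 (+/-), and 30 and 20 in the pools labelled Otx2 (+/AA). The 3 groups did not overlap, and the order was wildtype, Otx2 (+/AA), Otx2 (+/-). Rrh fell by 5.60 on the log2 scale in Otx2 (+/-) pools (SE 0.43, edgeR adjusted p = 0.00049), or 48.6-fold. That size rests on 6 counts against 287, whose ratio has a 95% exact counting interval of 23.1 to 140. In Otx2 (+/AA) pools it fell by 2.66 on the log2 scale (SE 0.28, edgeR adjusted p = 0.0015), or 6.31-fold. Of the 4 members tested in each of these comparisons, Rrh was the only one past the threshold, where 3.53% of 14561 genes passed for Otx2 (+/-) and 0.345% of 14482 genes for Otx2 (+/AA). Without pool A labelled Otx2 (+/-), the difference from wildtype was -4.88 (SE 0.46, edgeR adjusted p = 9.6e-05), and without pool B it was -7.08 (edgeR adjusted p = 3.3e-05).
A comparison of the mutant groups, added after the values were seen, gave a log2 fold change of -2.95 (SE 0.65, edgeR adjusted p = 0.033) for Otx2 (+/-) against Otx2 (+/AA), where 2.7% of 14566 genes passed and Rrh alone did among 4 members tested. That call was lost without pool A labelled Otx2 (+/-) (-2.23, edgeR adjusted p = 0.13) and without pool A labelled Otx2 (+/AA) (-2.71, edgeR adjusted p = 0.085). It was also lost with DESeq2 (adjusted p = 0.061), with counts summed over transcripts (edgeR adjusted p = 0.055) and with the pool letter as block (edgeR adjusted p = 0.062).

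The conditional model did not show a like fall of Rrh. LV ChP had 183 and 209 counts with vehicle and 131 and 250 with Cre-Tat, and the groups overlapped. In 4V ChP the counts were 48 and 51 with vehicle and 32 and 63 with Cre-Tat, or 3.56 and 4.71 CPM against 1.74 and 3.17 CPM, so that at equal depth the Cre-Tat pools lay below. Fitted log2 fold changes were -0.20 (SE 0.29) in LV and -0.73 (SE 0.33) in 4V, where Rrh passed only without Cre-Tat pool B (-1.22). A further fit was made over the 8 pools of 4V ChP with Cre-Tat, vehicle, Otx2 (+/-) and wildtype labels. The log2 fold change of Rrh was less negative with Cre-Tat than with Otx2 (+/-), by 4.85 (SE 0.63, edgeR adjusted p = 0.0021). The Cre-Tat side of this difference was known when the members were listed, so its p is not independent of that choice. Rrh was the only one of 6 members tested past the threshold, where 1.61% of 15314 genes passed. Without pool A labelled Otx2 (+/-) the adjusted p was 0.0068 (edgeR). None of the 6 members tested differed in its Cre-Tat effect between ventricles (edgeR adjusted p of 1 for each), where 0.00643% of 15552 genes, a single gene, passed. For Arr3 that difference was -0.84 (SE 1.32) and for Rpe65 -1.21 (SE 1.28), so the errors leave room for sizeable differences.

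**Figure D2:**
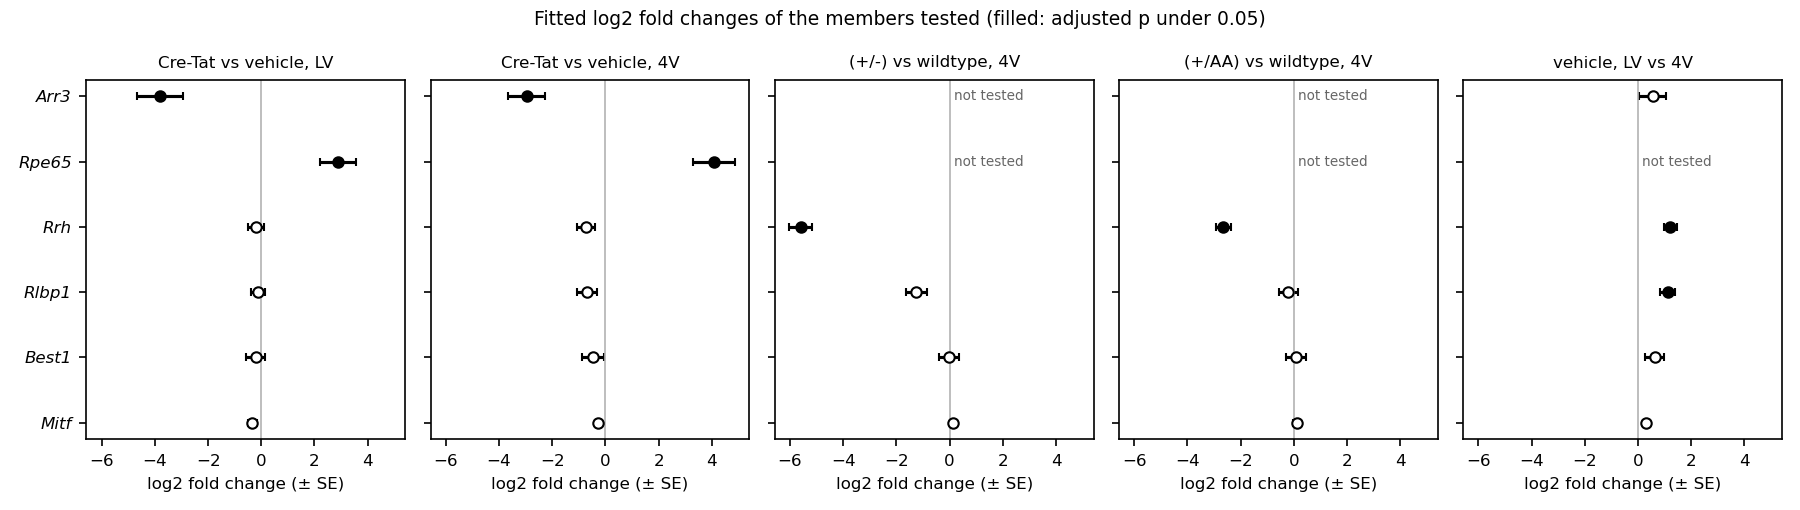
Fitted log2 fold changes with their standard errors for the 6 members that were tested in at least 1 comparison (one panel per comparison; filled symbols passed an adjusted p of 0.05). Rrh lies at -5.60 and -2.66 in the constitutive model and at -0.20 and -0.73 with Cre-Tat, while Arr3 and Rpe65 were not tested in the constitutive model.

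Among the retinoid members, Rrh and Rlbp1 differed between ventricles. LV and 4V ChP were dissected from the same groups of injected mice, so the ventricles need not be independent animals. Rrh was higher in LV than in 4V ChP of vehicle mice by 1.22 on the log2 scale (SE 0.23, edgeR adjusted p = 0.0059), with 9.57 ± 1.17 CPM against 4.13 ± 0.814 CPM (SD, n = 2). Rlbp1, the carrier of 11-cis retinoids, was higher by 1.11 (SE 0.29, edgeR adjusted p = 0.034), with 104 and 106 counts in LV and 37 and 21 in 4V. Without LV pool B, 4V pool B or 4V pool A labelled vehicle, 1 of these calls was lost (Rlbp1, edgeR adjusted p = 0.055 and 0.22; Rrh, 0.053). These were 2 of 5 members tested, where 7.49% of 14548 genes passed. Arr3 (0.55, SE 0.51), Best1 (0.63, SE 0.36) and Mitf (0.30, SE 0.11) did not pass, with edgeR adjusted p of 0.57, 0.32 and 0.14. Rpe65 had 8 and 1 counts in LV and 2 and 0 in 4V.

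Across the other groups Rlbp1 kept a moderate level. It had 106 and 113 counts in LV Cre-Tat pools and 29 and 27 in 4V Cre-Tat pools. The constitutive model gave 87 and 40 counts in wildtype, 23 and 33 in Otx2 (+/-), and 79 and 43 in Otx2 (+/AA) pools. The Otx2 (+/-) pools were below the wildtype pools by 1.25 on the log2 scale (SE 0.40), which did not pass the threshold (edgeR adjusted p = 0.14). With single pools dropped this difference ranged from -1.67 to -0.66, so its size depends on single pools. That of Otx2 (+/AA) was -0.20 (SE 0.36, edgeR adjusted p = 0.94).

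Best1 and Mitf passed in no comparison. Best1 ranged from 18 to 59 counts, and its levels were 1.18 to 2.56 CPM as group means. Its log2 fold changes ran from -0.48 (4V Cre-Tat, SE 0.41) to 0.63. Mitf was by far the most abundant member, with 2097 to 4978 counts. Its levels with Cre-Tat were 188 ± 15.7 CPM in LV and 159 ± 7.41 CPM in 4V, against 236 ± 2.15 and 192 ± 2.48 CPM with vehicle (SD, n = 2 pools). The Cre-Tat pools lay below the vehicle pools in both ventricles, at log2 fold changes of -0.33 (SE 0.16) and -0.27 (SE 0.13). In the constitutive model Mitf was at 161 ± 13.2 CPM in wildtype, 176 ± 3.31 in Otx2 (+/-) and 175 ± 25.6 CPM in Otx2 (+/AA), with edgeR adjusted p of 0.60 and 0.90 for the mutants. The interaction with model was -0.42 (SE 0.17, edgeR adjusted p = 0.30).

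Rgr, Rbp3, Crx and Tyr had 13, 22, 6 and 118 counts over all 14 pools, and most pools were at 0. Rgr had 8 counts in wildtype pool A, 4 in Otx2 (+/-) pool A and 1 in LV Cre-Tat pool A. Rbp3 had 7 in wildtype pool A, 13 in Otx2 (+/-) pool A and 1 in pool A of each Cre-Tat group. Crx had 4 counts in Otx2 (+/-) pool A and 2 in 4V Cre-Tat pool A. Tyr had 114 counts in Otx2 (+/-) pool A, 3 in LV Cre-Tat pool B and 1 in wildtype pool B. In each of these genes pool B labelled Otx2 (+/-) was at 0, so the 2 pools of that group do not support a group value. Tyr passed the filter and the threshold for Otx2 (+/-) only without pool B of that group (edgeR adjusted p = 8.1e-05) or without either wildtype pool, fits that all hold pool A. Rgr and Rbp3 lie on chromosome 14, as Otx2 does, at 11.6 and 14.7 Mb from it.

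Pool A labelled Otx2 (+/-) carried more RNA of several pigment cell and rod genes than any other pool. The genes named here were picked after their values were seen. Dct, an enzyme of melanin synthesis next to TYR, had 1459 counts, or 73.7 CPM against 3.65 to 13.3 CPM elsewhere. Slc45a2, a melanosomal transporter, had 72 counts and at most 4 elsewhere, and Mlana, a melanosome protein, 38 and at most 4. Among rod genes, Gnat1 (transducin) had 44 counts against at most 11, and Prph2 (peripherin) 21 against at most 4. Of 9 melanocyte markers 5 were highest in this pool, and of 11 photoreceptor markers 5, while 7.83% of the 18833 genes with a mean of at least 1 count were. Others were not, among them Pmel (9 counts, up to 40 elsewhere), Oca2 (31.6 CPM, up to 153) and Sag (27 counts, up to 39). The melanocyte markers summed to 125 CPM in this pool and to 181 CPM in LV vehicle pool A, the highest. Mitf, at 3534 counts, was within the range of the other pools. Rrh, Arr3 and Rlbp1 were not raised in it (1, 0 and 23 counts). Wildtype pool A, which held most of the Rgr counts, had 4 Prph2 counts, and its pool B had 0.

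**Figure D3:**
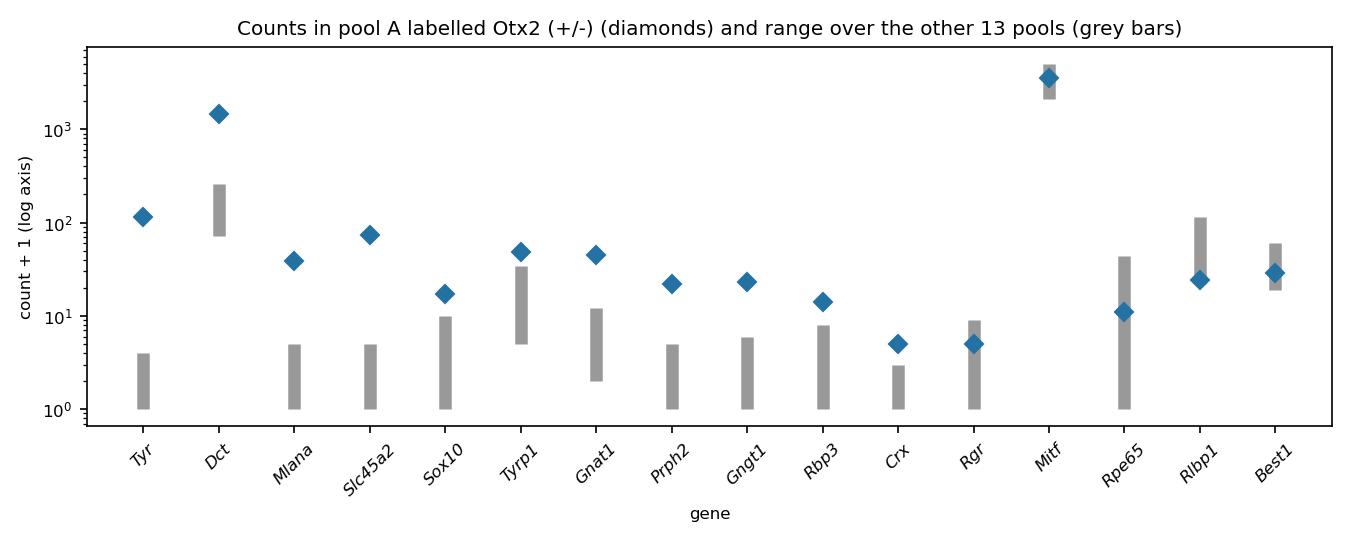
Counts plus 1, on a log axis, of 16 genes in pool A labelled Otx2 (+/-) (diamonds) and the range over the other pools (grey bars). Tyr, Dct, Slc45a2, Gnat1 and Prph2 lie above the range of the other 13 pools, and Mitf, Rpe65 and Best1 lie within it.

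Beyond the members, 18 further genes of retinoid handling were counted. This list and those that follow were chosen with earlier results known, so p-values of their genes are not independent of that choice. In the LV Cre-Tat comparison 2 of 16 tested fell and none rose (median log2 fold change -0.19, against 0.004 over all genes tested). In 4V ChP 4 of 15 fell and 1, Rdh10, rose (median -0.15, against 0.006). For Otx2 (+/-), 5 of 15 fell and none rose (median -0.21, against -0.001), and without pool A of that group 4 of 15 fell. None of 15 passed for Otx2 (+/AA) (median -0.20, against -0.006). Of all genes tested, 3.24%, 10.7%, 3.53% and 0.345% passed in these comparisons in that order, and the counts of the lists that follow stand against the same shares. Cell type markers also moved in the Otx2 (+/-) comparison, where summed ChP epithelium markers were 201550 and 190698 CPM in wildtype and 126583 and 134353 CPM in Otx2 (+/-) pools. Of those markers 3 of 12 fell (Ttr, Folr1 and Prlr; median -0.29), and 3 of 7 astrocyte markers rose. Their part in the values of retinoid genes and members was not tested.
Stra6, the membrane receptor that takes up retinol, fell in all 3 of these comparisons, and had 70.4 and 87.3 CPM in wildtype, 28.9 and 33.0 CPM in Otx2 (+/-) and 52.4 and 58.3 CPM in Otx2 (+/AA) pools. Its log2 fold change was -0.88 (SE 0.17, edgeR adjusted p = 0.011) in LV, -1.05 (SE 0.14, edgeR adjusted p = 9.4e-05) in 4V and -1.35 (SE 0.14, edgeR adjusted p = 0.0018) for Otx2 (+/-). Rdh12, a retinal reductase of photoreceptors, fell in 4V by 1.05 on the log2 scale (SE 0.25, edgeR adjusted p = 0.0093) and for Otx2 (+/-) by 1.85 (SE 0.25, edgeR adjusted p = 0.0056). Rdh10 went opposite ways, at 0.60 in 4V with Cre-Tat (SE 0.14, edgeR adjusted p = 0.011) and -0.72 for Otx2 (+/-) (SE 0.13, edgeR adjusted p = 0.02). Its interaction with model was 1.30 (SE 0.20, edgeR adjusted p = 0.005).
Lrat, which makes the retinyl esters on which RPE65 acts, had 46 and 31 counts in wildtype, 4 and 0 in Otx2 (+/-), and 30 and 11 in Otx2 (+/AA) pools. It fell in Otx2 (+/-) by 4.26 on the log2 scale (SE 0.73, edgeR adjusted p = 0.017). The size of that fall is uncertain, since without pool A the remaining pool held 0 counts and the fit gave -8.29 (SE 1.36, edgeR adjusted p = 0.0049). Lrat did not fall with Cre-Tat, where 4V ChP had 32 and 16 counts with vehicle and 68 and 85 with Cre-Tat (1.03, SE 0.33, edgeR adjusted p = 0.051). The effects of the 2 labels on Lrat differed by 5.28 (SE 0.77, edgeR adjusted p = 0.0042), and by 9.17 without pool A. In the Otx2 (+/-) pools the counts of Rpe65 were thus above wildtype and those of Lrat below. Crabp1, a retinoic acid binding protein, was counted mainly in LV, with 93 and 94 counts with vehicle and 30 and 43 with Cre-Tat (-1.52, SE 0.33, edgeR adjusted p = 0.020).

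Of 10 other markers of retinal pigment epithelium, 2 of 7 tested fell in 4V Cre-Tat pools, and none of 8 passed in LV and none of 5 for Otx2 (+/AA). In the Otx2 (+/-) comparison 3 of 6 tested fell and 1 rose (Tyrp1, 3.03, SE 0.48, edgeR adjusted p = 0.011, which was lost without pool A of that group, at 0.083 by edgeR). Without that pool 2 of 6 fell, as Rdh5, a retinol dehydrogenase, was lost too (edgeR adjusted p = 0.11). Slc16a8, the basolateral lactate transporter of that epithelium, had 612 and 635 counts in wildtype, 47 and 105 in Otx2 (+/-), and 609 and 534 in Otx2 (+/AA) pools. It fell by 3.12 on the log2 scale in Otx2 (+/-) (SE 0.30, edgeR adjusted p = 0.0012) and by 1.26 in 4V Cre-Tat pools (SE 0.18, edgeR adjusted p = 0.00013). Marker sums of this list were 178 to 201 CPM in wildtype and Otx2 (+/AA) pools and 124 and 130 CPM in Otx2 (+/-) pools.

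**Figure D4:**
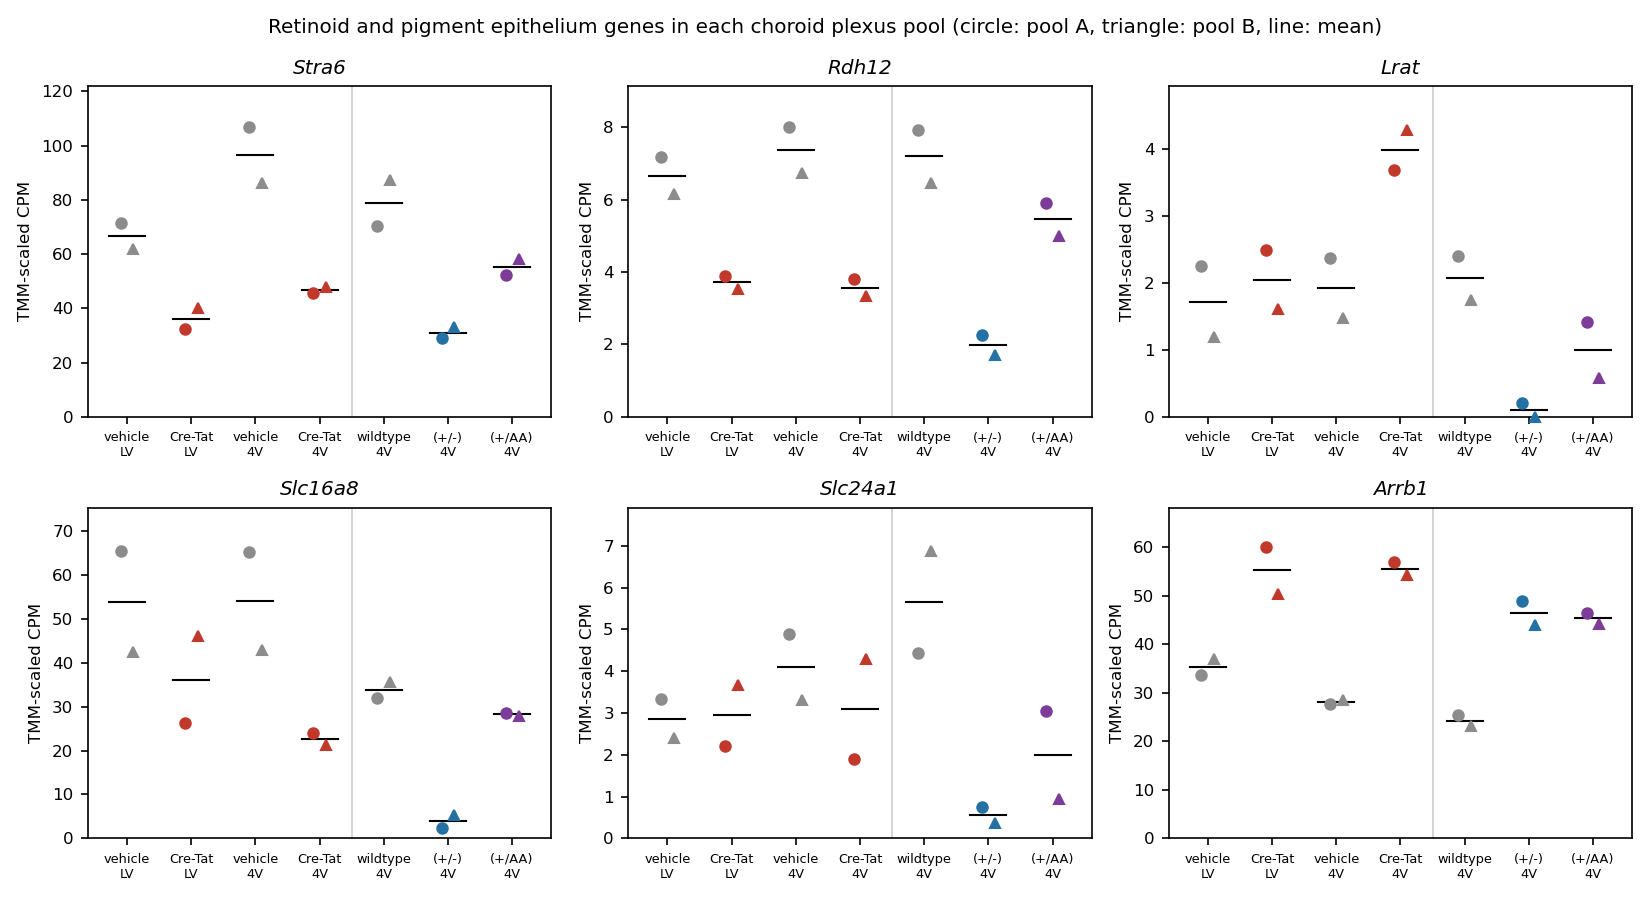
Level of 6 further genes of retinoid handling, phototransduction and pigment epithelium in each pool, in TMM-scaled CPM on a linear axis, with pools A (circles), B (triangles) and a line at the mean. Lrat and Slc16a8 were lowest in the (+/-) pools, and Arrb1 was higher in every pool labelled Cre-Tat, (+/-) or (+/AA) than in every control pool.

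Among 30 further phototransduction genes, at most 14 could be tested. None of 10 passed in 4V Cre-Tat pools and 1 of 10 rose in LV (Slc24a2, 1.47). Neuron markers rose in LV too, 2 of 9 (Snap25, 1.27, and Slc17a6, 2.39), with summed levels of 20.2 and 21.1 CPM with vehicle and 32.9 and 28.6 CPM with Cre-Tat. For Otx2 (+/-), Slc24a1, the rod sodium-calcium-potassium exchanger, fell from 85 and 122 counts to 15 and 7 (-3.32, SE 0.41, edgeR adjusted p = 0.0035). Rgs9, which speeds the shutoff of transducin, rose there (0.92, SE 0.15, edgeR adjusted p = 0.012). None of 12 passed for Otx2 (+/AA). Of 15 genes of photoreceptor structure and synapse, 6 were tested, and 2 fell in 4V Cre-Tat pools (Rom1 and Abca4), none passed in LV and 1 fell for Otx2 (+/-) (Rom1; edgeR adjusted p = 0.046, and 0.17 without pool A). Of 15 other melanin and melanosome genes, none of 9 tested passed in LV, 2 of 9 fell in 4V (Slc24a5 and Dct) and 1 of 8 rose for Otx2 (+/-) (Tyrp1). Without pool A, Dct fell instead (-1.62, SE 0.30, edgeR adjusted p = 0.011), from 13.3 and 9.06 CPM in wildtype to 3.65 CPM in pool B.
None of 6 to 8 eye and photoreceptor transcription factors tested passed in the Cre-Tat, Otx2 (+/-) or Otx2 (+/AA) comparisons. In vehicle pools Otx1 and Six3 were higher in LV than in 4V. Of 19 relatives of the members, Arrb1, the arrestin found in most tissues, rose in every comparison with controls. Arrb1 had 25.3 and 23.1 CPM in wildtype, 48.9 and 43.9 CPM in Otx2 (+/-), and 46.4 and 44.2 CPM in Otx2 (+/AA) pools. Its log2 fold change was 0.94 (SE 0.13, edgeR adjusted p = 0.0052) for Otx2 (+/-), 0.89 (SE 0.14, edgeR adjusted p = 0.014) for Otx2 (+/AA), 0.99 (SE 0.14, edgeR adjusted p = 0.0001) in 4V and 0.65 (SE 0.16, edgeR adjusted p = 0.047) in LV.

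With each run centred on its own mean, the patterns of log2(CPM + 1) over the 14 pools were compared among 13430 genes with a mean of at least 1 CPM. Amigo2 (Pearson r 0.968), Chrnb4 (0.966) and Tmod1 (0.942) were most like Rrh. For Rlbp1 they were Mcm2 (0.938), Sptlc3 (0.936) and Rasl10b (0.924). For Best1 they were Scn3b (0.923), Astn2 (0.921) and Magee2 (0.914), and for Mitf Cask (0.951), Daam1 (0.937) and Samd4 (0.928). Between members r was 0.75 for Rrh with Rlbp1 and 0.18 for Rrh with Mitf. The 14 pools share their depth, run and group differences, so these values only describe likeness.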

How the data were processed

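Choroid plexus RNA of 14 pools was sequenced in 50-base reads. The deposited values are raw counts, 22 files in all, giving reads per Ensembl transcript with no normalization by the authors. The labels name Bowtie 0.12.9, HTSeq 0.5.3 and build mm10 in the submitters' processing notes, and the strand used for counting is not given in the sources used here. The labels describe depletion of ribosomal RNA and the study PolyA+ selection.

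In the conditional model, 14 of 16 files carry a library number that belongs to another sample than the recorded one. Files were joined by library number, and the 2 runs of a pool were summed. Runs with the same library number differed by 1.002 to 1.036 times the degrees of freedom in a chi-square test, all 112 other pairs by at least 3.69, and the pairs as attached by 13.26 to 20.14.

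Of 95533 transcripts, 82807 matched GENCODE vM21 (GRCm38) and held 89.5% of the counts. Each symbol was read on its transcript with the most counts, since a read can be counted on several transcripts, which gave 33964 genes. Each pair of groups was compared by the quasi-likelihood test of edgeR 4.0.16 (R 4.3.3; filterByExpr, TMM), fitted to those pools only. P-values were adjusted by Benjamini-Hochberg across every gene in the fit, with a threshold of 0.05. SE is the log2 fold change divided by the square root of F. CPM values use TMM-scaled library sizes over 14 pools. An exact two-sided permutation test of 2 pools against 2 cannot go below p = 0.333, and n = 2 limits every SD. In the conditional model pools A and B held separate mice, while LV and 4V pools can share mice. The labels call the duplicates of the constitutive model biological replicates A and B, but whether they held separate mice is not stated. If they shared mice, p-values measure only the spread between the duplicates, which may be technical. Ratios of summed counts have 95% exact (Clopper-Pearson) intervals, which leave out the spread between pools. The procedure was tested on simulated data.

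The members and gene lists were chosen with earlier results of these data known. Named were all members, Otx2, from each list up to 3 genes past the threshold with the smallest p in a comparison, the 3 genes most like each member at a mean of at least 1 CPM, and others where said. Alternatives were DESeq2 1.42.0, edgeR with DESeq2's size factors or with total counts, no filter on low counts, a filter at a mean count of 10, counts summed over transcripts, each transcript as a feature, the pool letter as a block and crossed, all groups of a run in 1 fit, each pool left out, and the files as attached. Some genes of these lists are not reported here. The other experiments of the study were not used here. Tables were made in Python 3.11.15.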

Additional observations from a re-analysis of the deposited data

Results flagged for a closer look

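The difference between the Cre-Tat effect and the Otx2 (+/-) effect on Rrh in 4V ChP was 4.85 on the log2 scale by the interaction term of edgeR (SE 0.63, adjusted p = 0.0021, 4 pools against 4). Rrh stood at 8.41 and 7.09 CPM in wildtype and 0.0505 and 0.257 CPM in Otx2 (+/-) pools, and at 3.56 and 4.71 CPM with vehicle and 1.74 and 3.17 CPM with Cre-Tat. It was lower than in both control pools in 2 of 2 Otx2 (+/-) pools and 2 of 2 Cre-Tat pools. The Cre-Tat difference by itself (-0.73, SE 0.33) did not pass the threshold, so a fall of Rrh with Cre-Tat is not settled. The difference between the effects is listed here because the interaction term passed the threshold. Model, strain and sequencing run cannot be told apart in this comparison. With single pools dropped, the difference ranged from 4.14 to 6.32 and passed in 8 of 8 fits. The Cre-Tat side of it was known when the genes were chosen.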

How the results depend on the processing

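Joining the files as attached, where each pool mixes 2 libraries, changed many results of the conditional model. The number of members past the threshold became 4 in LV, 4 in 4V, 1 between ventricles, 1 in the ventricle interaction and 4 in the model interaction. Of all genes, 6705 of 14943 passed in LV, 8741 of 14845 in 4V and 4715 of 14442 between ventricles. In the interactions 5246 of 15366 (ventricle) and 4681 of 15408 (model) passed, so nothing is read from these counts of members. Log2 fold changes in LV became 1.14 for Arr3, 1.45 for Rrh, 1.15 for Rlbp1, 0.36 for Mitf and -0.01 for Otx2. In 4V they became 1.56 for Rrh, -0.08 for Rpe65, 1.74 for Rlbp1, 1.07 for Best1, 0.23 for Mitf and -0.29 for Otx2. Between ventricles they were -0.56 for Rrh and -0.11 for Otx2. The ventricle interaction gave 0.13 for Mitf and 0.28 for Otx2, and the model interaction -3.66 for Rpe65 and -1.83 for Otx2.

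Under the other settings no called member value changed sign, while 26 of 584 member values did, none of which had passed the threshold in the report. Members past the threshold numbered 1 in LV with total counts (Arr3 lost) and 1 with counts summed over transcripts (Rpe65 lost). In 4V they numbered 1 with a mean count above 10 and 1 with all groups of the run in 1 fit (Arr3 lost or left out). Between ventricles they numbered 1 with total counts, DESeq2, summed transcripts, crossed letters as a replicate block or all groups of the run in 1 fit. For Otx2 (+/-) against wildtype they numbered 2 with summed transcripts (Arr3 gained, from reads counted on several transcripts) and 2 with the pool letter as replicate block (Rlbp1 gained, edgeR adjusted p = 0.0068). For Otx2 (+/-) against Otx2 (+/AA) they numbered 0 with DESeq2, summed transcripts or the replicate block. For Otx2 itself, total counts gave -0.06 between ventricles and summed transcripts 0.40 in the model interaction. The cause was not tested.

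The labels do not say that the pool letters mark a shared batch. Deviations of same-letter pools had correlations of -0.15 (LV), 0.21 (4V), 0.38 (Otx2 (+/-)), 0.09 (Otx2 (+/AA)), 0.11 (between ventricles) and 0.13 (between mutants). Between ventricles the letter as block kept Rrh and Rlbp1. In 4V Cre-Tat pools the block moved Mitf (-0.27) past the threshold, which is no test of that member. When single pools were dropped, members past the threshold numbered 0 to 1 in LV, 1 to 2 in 4V, 1 to 3 for Otx2 (+/-) against wildtype, 1 to 2 between ventricles and 0 to 3 for Otx2 (+/-) against Otx2 (+/AA). A lone pool is then assumed to vary like the other group. Otx2 between ventricles ranged from 0.00 to 0.25. Rrh passed in every setting for Otx2 (+/-) against wildtype, for Otx2 (+/AA) against wildtype and in the model interaction. Counting motifs on the given strand alone left 2 members with TAATCC in place of 6, and 3.03% of all promoters in place of 6.25%. Counts under 20 in most pools limit Arr3, Rpe65 and the sparse members, and 2 pools a group limit every value.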
